A study of Mus musculus with 6 samples.

Results

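The genes described here encode the Wnt, Fgf and Bmp signalling proteins of the mouse. They were taken as every gene whose symbol is Wnt, Fgf or Bmp followed by a number, with A or B allowed at the end of Wnt and Bmp symbols. The rule found 52 genes (19 Wnt, 22 Fgf and 11 Bmp) among the 19378 genes held by at least 1 of 6 tissue sections, and it used no measured value. The control paw and the embryo H3K27me3 and H3K27ac sections held all 52. The arthritis paw held 37, the brain 40 and the embryo H3K4me3 section 50, and 35 were held by all 6 sections.

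Chromatin fragments carrying a histone mark were captured by position: an antibody bound the mark, protein A fused to the transposase Tn5 cut the chromatin there, and the fragments were tied to the barcodes of a spot on a DNA array. The arthritis paw section came from an adult labelled with collagen-induced arthritis at 42 days, in which immunisation with collagen inflames the joints, and the control paw section from an adult control with the same label, both profiled for H3K27ac. The brain section came from a wild-type adult and was profiled for H3K4me3, and 3 sections of wild-type embryos at E11.5 were profiled for H3K27me3, H3K27ac and H3K4me3, 1 mark each. The labels give no strain, sex or transgene. The paw tissue was decalcified, embedded in paraffin and cut at 4 µm around an ankle bone, whereas embryo (16 µm) and brain (20 µm) were cryosectioned, so that tissue and preparation cannot be told apart between paw and embryo. Each group was 1 section. Spread between animals could not be measured, no test was made, and all intervals cover counting error only. A spot can hold several cells, and fewer cells of a type cannot be told apart from fewer marked fragments per cell.

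Wnt proteins are lipid-modified ligands that bind Frizzled receptors, with Lrp5 or Lrp6 when the signal runs through beta-catenin. Most fibroblast growth factors bind receptor tyrosine kinases together with heparan sulfate or a Klotho protein. Bone morphogenetic proteins are ligands of the TGF-beta superfamily whose receptors phosphorylate Smad proteins. All 3 families pattern the embryo and are used again in adult bone, joint, skin and brain. H3K4me3 marks promoters, often but not always those in use, and H3K27ac marks active promoters and enhancers. H3K27me3 marks genes kept silent by Polycomb, which often include the genes of such ligands in cells that do not use them. The symbol rule also took in genes whose products act otherwise: Bmp1 is a protease that trims procollagen and the Bmp antagonist chordin, and Fgf11, Fgf12, Fgf13 and Fgf14 are not secreted and bind sodium channels inside the cell.

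RefSeq promoters, 250 bases before to 50 bases after the start of a transcript, were listed under the symbols of 38 of the 52 genes (15 Wnt, 16 Fgf and 7 Bmp). Those of Wnt11, Wnt3, Fgf2, Wnt16, Fgf23 and Bmp10 are shown as examples of genes that were called in a comparison below and stayed called there under every other setting tried. Sequences run 5′ to 3′, and capitals mark the pair CG.
Wnt11, GRCm38.p6, chr7:98834862-98835161, plus strand: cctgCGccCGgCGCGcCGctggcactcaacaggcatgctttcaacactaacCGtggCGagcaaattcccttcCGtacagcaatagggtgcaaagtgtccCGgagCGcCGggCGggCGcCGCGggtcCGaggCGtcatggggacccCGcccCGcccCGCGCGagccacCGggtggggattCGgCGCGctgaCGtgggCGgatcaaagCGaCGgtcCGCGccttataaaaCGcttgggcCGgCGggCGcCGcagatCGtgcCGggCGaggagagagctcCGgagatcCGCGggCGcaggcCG
Wnt3, GRCm38.p6, chr11:103773925-103774224, plus strand: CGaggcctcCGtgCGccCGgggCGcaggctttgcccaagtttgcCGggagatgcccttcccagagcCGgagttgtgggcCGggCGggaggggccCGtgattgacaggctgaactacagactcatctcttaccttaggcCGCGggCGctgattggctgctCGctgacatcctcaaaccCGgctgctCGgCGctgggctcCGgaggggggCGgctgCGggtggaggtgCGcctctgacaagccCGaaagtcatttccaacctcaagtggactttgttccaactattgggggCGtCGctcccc
Fgf2, GRCm38.p6, chr3:37348403-37348702, plus strand: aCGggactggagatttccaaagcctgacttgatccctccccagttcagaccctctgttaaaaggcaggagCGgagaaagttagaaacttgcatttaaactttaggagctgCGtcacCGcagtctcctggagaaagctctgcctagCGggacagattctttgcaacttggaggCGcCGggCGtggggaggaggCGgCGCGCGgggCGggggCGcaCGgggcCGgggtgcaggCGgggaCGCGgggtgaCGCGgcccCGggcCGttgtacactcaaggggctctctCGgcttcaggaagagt
Wnt16, GRCm38.p6, chr6:22287977-22288276, plus strand: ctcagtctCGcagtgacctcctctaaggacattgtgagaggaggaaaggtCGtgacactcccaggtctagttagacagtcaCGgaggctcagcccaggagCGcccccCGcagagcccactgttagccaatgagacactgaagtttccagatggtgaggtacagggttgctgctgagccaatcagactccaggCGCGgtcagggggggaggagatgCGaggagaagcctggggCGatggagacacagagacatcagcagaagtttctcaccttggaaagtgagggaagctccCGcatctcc
Fgf23, GRCm38.p6, chr6:127072652-127072951, plus strand: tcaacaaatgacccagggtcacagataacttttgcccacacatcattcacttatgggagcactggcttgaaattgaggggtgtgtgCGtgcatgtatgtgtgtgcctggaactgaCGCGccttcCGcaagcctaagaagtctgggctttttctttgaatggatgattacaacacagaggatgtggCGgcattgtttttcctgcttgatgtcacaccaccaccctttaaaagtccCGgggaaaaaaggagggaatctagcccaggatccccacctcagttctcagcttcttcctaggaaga
Bmp10, GRCm38.p6, chr6:87428744-87429043, plus strand: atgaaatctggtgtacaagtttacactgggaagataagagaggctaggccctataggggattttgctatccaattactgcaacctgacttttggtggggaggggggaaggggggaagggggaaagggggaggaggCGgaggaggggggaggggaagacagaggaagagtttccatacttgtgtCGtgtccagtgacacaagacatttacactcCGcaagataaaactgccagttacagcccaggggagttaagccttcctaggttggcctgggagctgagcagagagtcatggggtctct

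The Wnt11 window holds 45 CG pairs, those of Wnt3 and Fgf2 hold 24 each, Wnt16 holds 10, Fgf23 holds 6 and Bmp10 holds 3, against a median of 7 over 27025 genes in the same table. CG-rich promoters are the usual place of H3K4me3 in mammals and also of Polycomb binding. Taking the promoter listed for each gene, or the earliest in the table where several are, the 15 Wnt promoters had a median of 31 CG pairs (6 to 58), the 16 Fgf promoters 12 (3 to 47) and the 7 Bmp promoters 12 (2 to 27). The ratio of observed to expected CG reached 0.6 in 12 of 15 Wnt, 9 of 16 Fgf and 2 of 7 Bmp promoters, and in 36.5% of all genes. GGCGCC, a GC-rich motif bound by Smad proteins, stood in 7 of 15 Wnt promoters (46.7%), 2 of 16 Fgf and 0 of 7 Bmp promoters, against 12.0% of all promoters. It reads the same on both strands and holds a CG pair itself. The TCF/LEF core TCAAAG, searched on both strands, stood in 1 Wnt, 3 Fgf and 0 Bmp promoters, and the TATA core TATAAA, also on both strands, in 1, 2 and 1; their shares over all promoters were 16.2% and 14.2%. Wnt11 was the Wnt gene with both. Across genes, the number of CG pairs and the reads of a section had a Spearman's rho of 0.20 to 0.37 over the 28 to 38 ligand genes and of 0.10 to 0.22 over all genes, which is a description, since genes of a section share its library and depth.

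**Figure D1:**
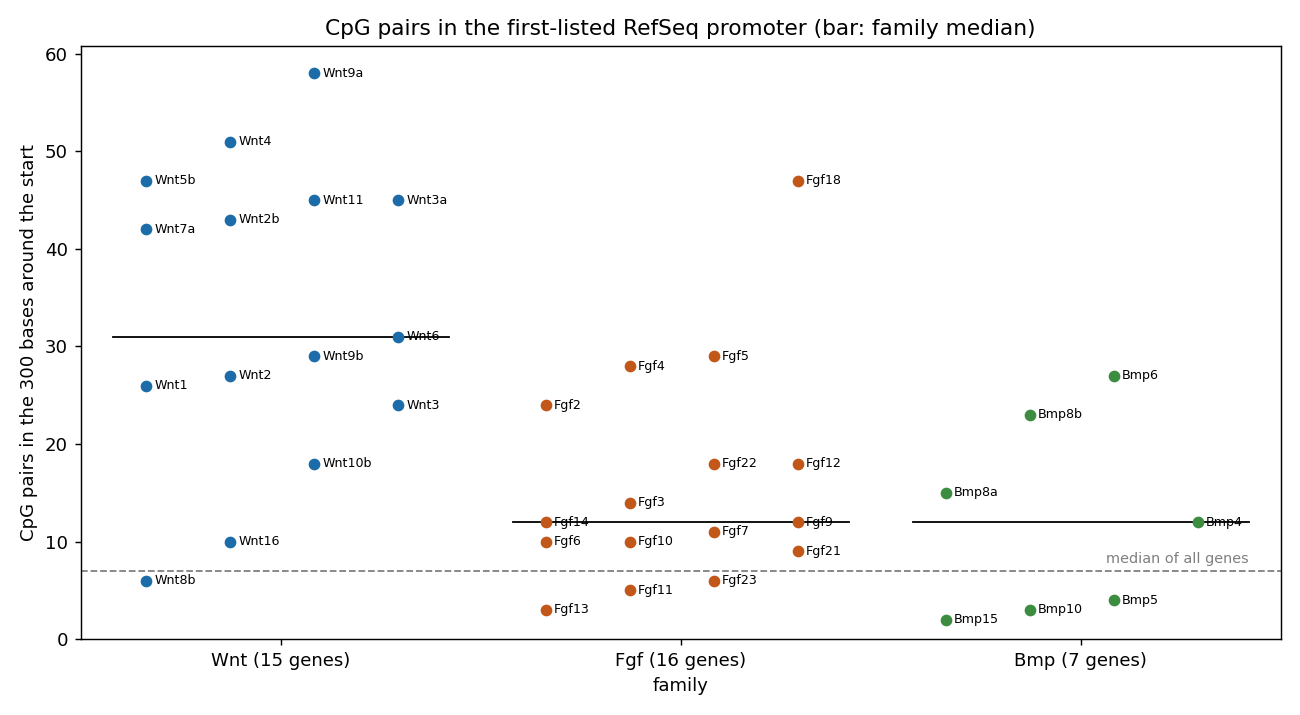
Number of CG pairs (vertical axis) in the 300 bases around the start of 15 Wnt, 16 Fgf and 7 Bmp genes, 1 point per gene and a bar at each family's median; points are spread sideways for legibility alone. The Wnt median is 31, the Fgf and Bmp medians are 12, and the dashed line marks the median of 7 over all genes.

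The deposited signal values had been quantile-normalised within spots in a way that left the order of tied genes readable, so whole reads per gene and spot were recovered from them. Recovery was not complete, with totals of 92.9% to 95.4% of those implied by the deposited values. Recovered sums matched the deposited values less often in the brain and embryo than in the paws, as given under processing. The intervals below leave this error out. The sections held 5344438 (arthritis paw), 5981684 (control paw), 2036521 (brain), 749650 (embryo H3K27me3), 548923 (embryo H3K27ac) and 403483 (embryo H3K4me3) reads, in 943, 554, 1200, 254, 251 and 248 spots. The median gene had 274, 142, 120, 14, 12 and 7 reads in the same order, so ratios of single genes are least precise in the embryo. The median percentile of the neuron markers held was 93.1 in the arthritis paw (5 of 6), 83.7 in the control paw (6 of 6) and 93.0 in the brain (5 of 6). Other neural markers went both ways between the arthritis paw and the brain. Astrocyte markers ranked lower in the arthritis paw, at 45.6 (2 of 4) and 78.1 (3 of 4), as did oligodendrocyte markers, at 73.5 and 81.0 (3 of 4 in each). Neural tube markers ranked higher there, at 91.4 and 83.8 (5 of 5 in each). These percentiles are taken among gene lists of unlike length. Of the 4 macrophage markers the arthritis paw held 1. What part the markers have in the results below was not tested. No ligand gene had a read sum that is only a lower bound.

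A gene's level is given as its percentile, the share of the section's genes with fewer reads, with ties at the middle. Sections held gene lists of unlike length (11130 genes in the arthritis paw and more in the control paw), so percentiles order genes within a section, and differences between sections are read from the ratios further on. On read sums the Wnt median percentile was 67.2 in the arthritis paw (16 genes), 68.6 in the control paw (19), 66.6 in the brain (17), 79.1 for embryo H3K27me3 (19), 84.6 for embryo H3K27ac (19) and 72.3 for embryo H3K4me3 (19). The Fgf medians were 47.1 (15 genes), 49.0 (22), 55.8 (15), 66.2 (22), 56.3 (22) and 70.2 (21) in the same order. The Bmp medians were 56.9 (6 genes), 54.4 (11), 51.1 (8), 53.6 (11), 63.4 (11) and 40.2 (10). Among the 9471 genes held by all 6 sections, the Wnt median was 64.5 in the arthritis paw and 52.1 in the control paw, the Fgf median 53.1 and 38.9, and the Bmp median 53.4 and 36.98, so the closeness of the paws on their full lists did not hold there. With the deposited values the Bmp median of the control paw was 35.4. Wnt genes had the highest family median in 6 of 6 sections on read sums, but in 2 of 6 on reads per kilobase of gene span, where Fgf genes were highest in the other 4, and in 5 of 6 with the deposited values or with spots of even array columns. Per kilobase, the Wnt medians were 50.6, 57.8, 50.9, 69.8, 63.9 and 57.9, the Fgf medians 66.6, 66.5, 62.6, 67.5, 63.6 and 67.7, and the Bmp medians 40.8, 36.6, 34.5, 32.1, 57.7 and 28.1 in the same order, with Bmp lowest in 6 of 6. Where reads lie in relation to a gene is not given in the sources used here. Reads grew little with the span of a gene, at a Spearman's rho of 0.14 to 0.19 over all genes of a section, so both scales are given. Within each family the spread was wide, and the families overlapped in every section.

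**Figure D2:**
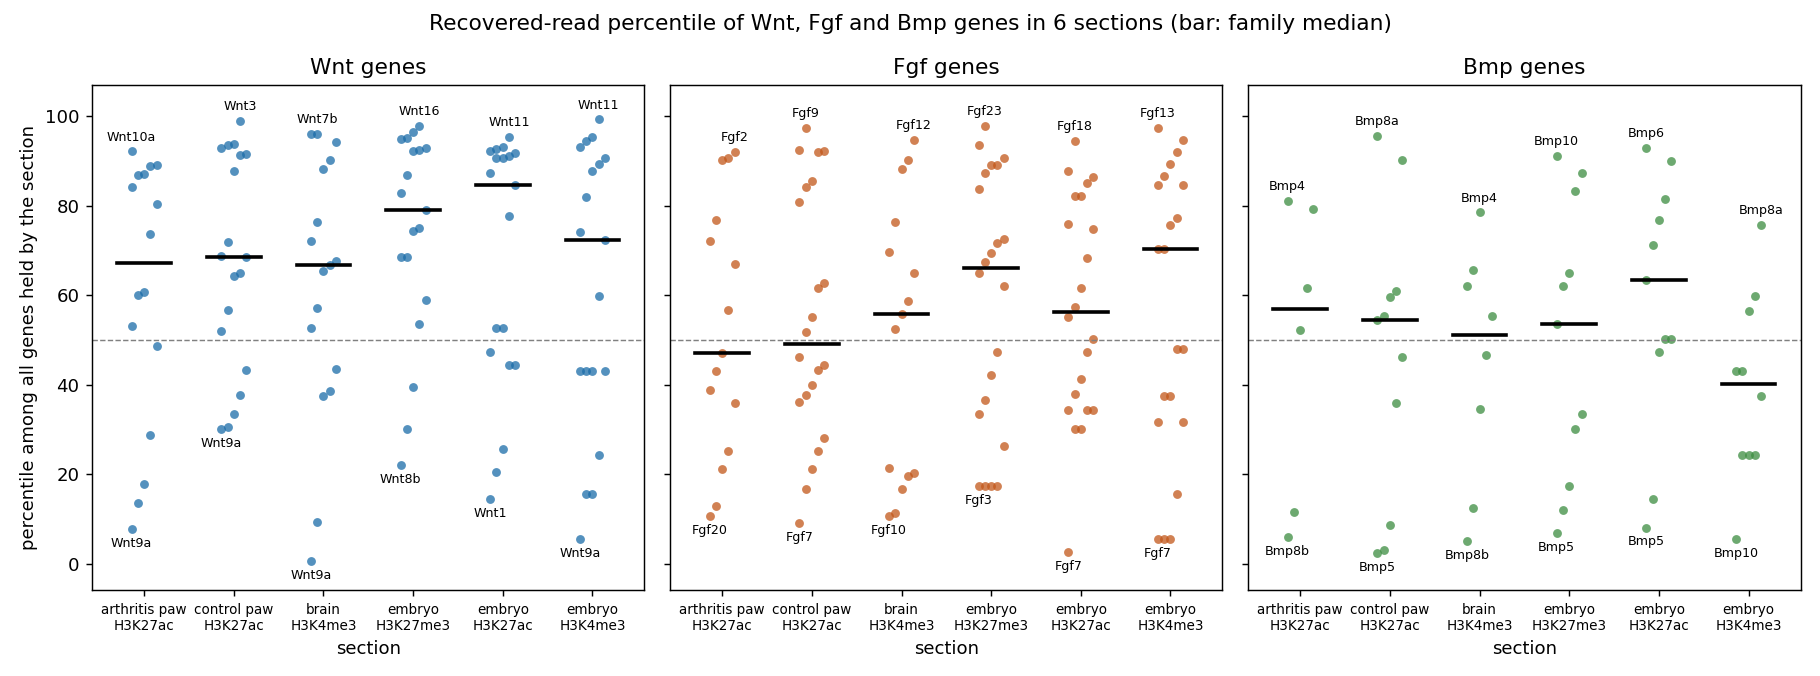
Percentile of each gene among all genes of its section (vertical axis, read sums) for the 6 sections (horizontal axis), in panels of Wnt, Fgf and Bmp genes; points are genes, bars are family medians, the dashed line is the middle of the section, and the highest and lowest gene of each family is named. Wnt medians lie between 66.6 and 84.6, Fgf medians between 47.1 and 70.2 and Bmp medians between 40.2 and 63.4, with genes of each family near both ends.

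Among the Wnt genes, Wnt5b, Wnt7b, Wnt10a, Wnt10b and Wnt11 lay in the top 25% of all 6 sections. The share of all genes that did so was not counted, here or for the Fgf and Bmp genes below. Sections were alike over all genes, with a Spearman's rho of 0.59 to 0.73 between their reads. A high place in every section is therefore not shown to be particular to these genes. Wnt5b and Wnt11 mostly signal without beta-catenin, in cell polarity and movement, while Wnt7b, Wnt10a and Wnt10b mostly signal through it and act in lung and kidney, in teeth and hair, and in bone. The percentiles of Wnt11, which also acts in the branching kidney, were 86.8 (arthritis paw), 93.0 (control paw), 96.0 (brain), 95.2 (embryo H3K27me3), 95.4 (embryo H3K27ac) and 99.3 (embryo H3K4me3). In the same order Wnt7b had 87.0, 93.5, 96.1, 92.1, 91.1 and 93.2, and Wnt10a 92.1, 93.9, 88.3, 92.9, 92.3 and 95.4. Wnt5b ranged from 88.8 to 94.96 and Wnt10b from 84.2 to 92.7. These genes were high under the silencing mark as well as under the active marks. At the other end, Wnt9a, which helps to set apart the joints of the limb, was the lowest Wnt gene of the arthritis paw (7.7), the control paw (30.1), the brain (0.63) and embryo H3K4me3 (5.4), and stood at 58.9 for embryo H3K27me3 and 25.6 for embryo H3K27ac. Among the genes held by all sections, Wnt9a was at 4.4 in the arthritis paw and 5.2 in the control paw. Wnt16, a Wnt gene of bone and joint, was at 13.6 (arthritis paw), 33.5 (control paw), 9.2 (brain), 47.3 (embryo H3K27ac) and 15.5 (embryo H3K4me3), and at 97.9 for embryo H3K27me3. Among the genes held by all sections, Wnt16 was at 9.4 in the arthritis paw and 7.2 in the control paw, the opposite order to that on the full lists, and at 97.0 for embryo H3K27me3. Wnt1, which is needed to form the midbrain, was lowest for embryo H3K27ac at 14.4 with 3 reads. Wnt8b, a gene of the embryonic forebrain, was lowest for embryo H3K27me3 at 22.0 with 5 reads. Besides those named, the 3 highest Wnt genes of a section included Wnt3 in the control paw (99.0), Wnt7a in the arthritis paw (89.2), Wnt2 for embryo H3K27me3 (96.5) and H3K27ac (93.2), and Wnt2b for embryo H3K4me3 (94.6). The 3 lowest included Wnt3a in the arthritis paw (17.8), Wnt9b in the brain (37.5), and Wnt8a for embryo H3K27me3 (39.5) and H3K27ac (20.4).

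Among the Fgf genes, Fgf12 and Fgf18 lay in the top 25% of all 6 sections. The percentiles of Fgf12, which spans 595461 bases, were 90.7 (arthritis paw), 92.3 (control paw), 94.6 (brain), 93.6 (embryo H3K27me3), 87.7 (embryo H3K27ac) and 84.6 (embryo H3K4me3). In the same order Fgf18, a secreted factor of cartilage and bone growth, had 90.3, 84.1, 90.2, 87.3, 94.4 and 84.6. Among the genes held by all sections, Fgf18 left the top 25% in the control paw (73.8), while Fgf12 and the 5 Wnt genes above stayed in it in all 6. The other intracellular members differed: Fgf13 was highest for embryo H3K4me3 (97.4), Fgf14 stayed between 20.2 and 51.8 although it spans 703246 bases, and Fgf11 had 92.4 in the control paw and 42.2 and 34.3 for embryo H3K27me3 and H3K27ac. Fgf2, the basic fibroblast growth factor, was the highest Fgf gene of the arthritis paw (92.0) and among the 3 lowest of the brain (11.2). Fgf9, which drives growth of mesenchyme, was the highest of the control paw (97.3), and Fgf23, the bone hormone that lowers blood phosphate, of embryo H3K27me3 (97.9). Fgf16 (90.6 for embryo H3K27me3) and Fgf1 (86.5 for embryo H3K27ac) also ranked among the 3 highest of a section, as did Fgf8 and Fgf4 for embryo H3K4me3 (94.7 and 92.1). Few reads lay on the lowest Fgf genes. Fgf7, the keratinocyte growth factor, was at 9.1 in the control paw, 17.2, 2.5 and 5.4 for embryo H3K27me3, H3K27ac and H3K4me3, with 43, 4, 1 and 1 reads. Fgf5, which ends hair growth, was at 21.1, 17.2, 30.2 and 5.4 in the same order, and Fgf6, a muscle ligand, at 16.7 in the control paw and 17.2 for embryo H3K27me3. Fgf20 was the lowest Fgf gene of the arthritis paw (10.6), and Fgf10, which starts lung and limb buds, of the brain (10.5). Fgf22, a ligand of synapses, was among the 3 lowest of the brain (16.7) and of embryo H3K27ac (30.2).

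Among the Bmp genes, none lay in the top 25% of all 6 sections. Bmp8a, which acts in male germ cells, had 79.2 (arthritis paw), 95.6 (control paw), 65.7 (brain), 87.3 (embryo H3K27me3), 81.6 (embryo H3K27ac) and 75.7 (embryo H3K4me3). Bmp4, a ligand of mesoderm, limb and bone, had 81.1, 90.3, 78.5, 83.2, 90.0 and 56.4 in the same order. Bmp8a and Bmp4 were thus among the 3 highest Bmp genes in 6 of 6 sections. Bmp15, an oocyte ligand on chromosome X, was among the 3 highest in the paws (61.6 in the arthritis and 61.0 in the control paw, or 58.5 and 38.0 among the genes held by all sections). Bmp5, which shapes ear cartilage and skeleton, was lowest in the control paw (2.3) and for embryo H3K27me3 (6.8) and H3K27ac (8.0), with 28, 2 and 2 reads, and it spans 124952 bases. Bmp3, which opposes other Bmp ligands in bone, had 8.6, 12.1, 14.4 and 24.3 in the control paw and for embryo H3K27me3, H3K27ac and H3K4me3. Bmp10, a ligand of the embryonic heart, ran from 3.0 in the control paw and 5.4 for embryo H3K4me3 over 47.3 for H3K27ac up to 91.2 for H3K27me3. Bmp8b, a gene of brown fat, was lowest in the arthritis paw (5.8) and the brain (5.0), where Bmp7 (11.4 and 34.6) also stood among the 3 lowest. Bmp1, the protease, was at 46.2 in the control paw, 33.3 for embryo H3K27me3, 76.8 for H3K27ac and 24.3 for H3K4me3.

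Sections were compared by the log2 ratio of their levels relative to the mean gene held by both, with a pseudocount of 0.1, minus the median over all genes held by both. A gene was called higher or lower where this centred log2 ratio reached 1 either way and its 95% interval excluded 0. The interval is of the read ratio without the pseudocount, so for large ratios it can lie farther from 0 than the value. The medians subtracted were 0.11 (arthritis over control paw), 0.20 (control paw over embryo H3K27ac), 0.66 (brain over embryo H3K4me3), -0.12 (H3K27me3 over H3K27ac), 0.08 (H3K27me3 over H3K4me3) and 0.20 (H3K27ac over H3K4me3).

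The arthritis paw was set against the control paw for H3K27ac, with 1 section each, so differences between them cannot be assigned to inflammation. The paws were not the most alike pair. Over the 9471 genes held by all 6 sections, Spearman's rho was 0.66 between the paws and 0.73 between the arthritis paw and the brain. Over the 35 ligand genes among them it was 0.58 and 0.73. Fgf2 and Wnt7a had more H3K27ac in the arthritis paw than in the control paw, and Wnt3 and Fgf9 had less. Of the 37 genes held by both paws, 3 were called higher, against 9.84% of 11130 genes, and 3 lower, against 9.04%, so the ligand genes were called about as often as other genes. The medians were -0.08 for 16 Wnt, 0.22 for 15 Fgf and -0.30 for 6 Bmp genes, where all genes lie at 0 with a middle 50% between -0.38 and 0.40. Above 0 were 7 of 16 Wnt, 9 of 15 Fgf and 2 of 6 Bmp genes. The Wnt median lay between -0.12 and 0.06 under the other settings, so its sign was not settled. The 15 ligand genes not held by the arthritis paw cannot be compared; they ranked between 2.3 and 92.4 in the control paw with a median of 30.5, and Fgf11 (690 reads) and Fgf1 (428 reads) were the highest of them.

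Fgf2, a factor for fibroblasts and blood vessels, had 1123 reads in the arthritis paw, against 100 in the control paw, a centred log2 ratio of 2.70 (interval 2.84 to 3.44). Wnt7a, which sets the dorsal side of the limb and acts in skin and nerve, had 926 reads in the arthritis paw and 209 in the control paw, at 1.61 (1.57 to 2.02). Wnt2b had 596 and 205 reads, at 1.04 (0.95 to 1.42), just past the threshold, and it fell short of it under 5 of 8 other settings. On the other side, Wnt3, which acts in gastrulation and limb outgrowth, had 175 reads in the arthritis paw, against 2814 in the control paw, at -4.03 (-4.59 to -4.14). Fgf9 had 238 and 1438 reads, at -2.73 (-3.15 to -2.75), and Bmp8a 566 and 1032, at -1.16 (-1.37 to -1.07). Wnt3 was the ligand gene with the most reads in the control paw, at percentile 99.0, and stood at 28.7 in the arthritis paw. The span of Wnt3 overlaps that of Wnt9b, which had 267 reads in the arthritis and 169 in the control paw and was not called. Nudt6, whose span overlaps that of Fgf2, had 55 reads in the control paw and was not held by the arthritis paw, so how reads were divided within that pair cannot be told apart. Fgf2, Wnt3 and Fgf9 stayed called under all 8 other settings, Wnt7a under 7 and Bmp8a under 5. In the control paw, Wnt3 held 6.18% of its reads in array columns 1, 5, 9, 13, 17 and 21, which held 12.9% of all reads, and its call stood without them.

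Cell type markers differed between the paws as well, compared over the markers held by both. The median centred log2 ratio was 0.67 for epidermis (4 of 5 markers held, with 4001 reads in the arthritis paw and 1813 in the control paw), -0.78 for neutrophils (4 of 5, 1005 and 1336 reads) and -0.73 for cartilage (2 of 5, 534 and 827 reads). It was -0.18 for bone (5 of 5, 1291 and 1037 reads), 0.18 for skeletal muscle (5 of 5, 2713 and 1479 reads) and 0.24 for neurons (5 of 6, 4934 and 3254 reads). Of these markers, 1 of epidermis, 1 of skeletal muscle and 1 of neurons were called higher and 1 of cartilage lower. Other lists moved as well: neural tube was at 0.31 (8759 and 2463 reads, 2 of 5 called higher) and heart at 0.54 (1 of 3 higher). Embryonic liver and blood was at 0.19 (1 of 4 higher) and astrocytes at -1.12 (1 of 2 lower). Oligodendrocytes (0.20), macrophages (0.15, 1 marker) and limb and face (-0.13) had none called. The part of all these markers in the differences of Fgf2, Wnt7a, Wnt3 and Fgf9 was not tested.

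**Figure D3:**
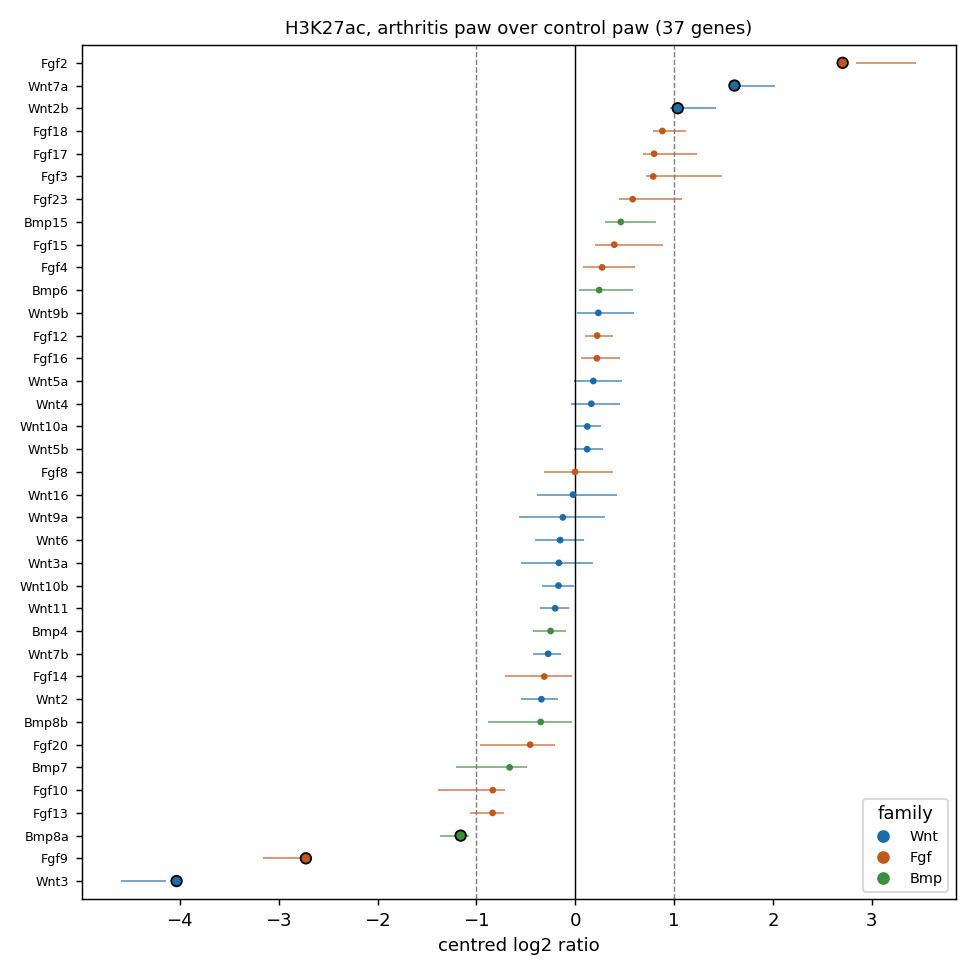
Centred log2 ratio of H3K27ac reads, arthritis paw over control paw (horizontal axis), for the 37 ligand genes held by both, sorted; colour gives the family, lines are 95% counting intervals of the read ratio without the pseudocount, dashed lines mark 1 either way, and large outlined points are called. Fgf2 (2.70), Wnt7a (1.61) and Wnt2b (1.04) lie to the right, Wnt3 (-4.03), Fgf9 (-2.73) and Bmp8a (-1.16) to the left, and the other 31 between.

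Of 85 receptors, antagonists, targets and feedback genes of the 3 pathways, both paws held 63, of which 5 (7.94%) were called higher and 3 (4.76%) lower, against 9.84% and 9.04% of all genes, so these genes were called no more often than others. Among Fgf targets, 2 of 10 were higher: Etv4 (3502 reads in the arthritis paw, 298 in the control paw, at 3.04) and Etv5 (1917 and 425, at 1.72), a pair of transcription factors induced by Fgf signals. Klb, the Klotho coreceptor of hormonal Fgf ligands, was at 1.53, and Acvr2a, a receptor of Bmp and activin, at 1.93. Dkk3, of the Dickkopf group of secreted proteins, had 5063 reads in the arthritis paw, a sum that is a lower bound, against 738, at 2.36, and its relative Dkk4 was at -1.11. Ror1, a receptor for Wnt5a, fell to 656 reads in the arthritis paw, against 2217 in the control paw, at -2.04, and Msx2, a homeobox target of Bmp, to 281 reads, against 1163, at -2.23. No Wnt target (0 of 8 held) and no Bmp antagonist (0 of 5 held) was called.

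The control paw was set against the embryo for the same mark, H3K27ac, and shares the control section with the comparison above. Wnt3, Fgf9 and Bmp8a, the genes lower in the arthritis paw, were higher in the control paw than in the embryo, a result that rests in part on the same control values. Of 52 genes, 5 were called higher, against 9.86% of 18943 genes, and 9 lower, against 11.0%. The medians were -0.45 (Wnt), -0.25 (Fgf) and -0.23 (Bmp), and 17 of 52 genes were above 0. Wnt3 had 2814 reads in the control paw and 10 in the embryo, at 4.15 (3.62 to 5.56). Fgf11 had 690 and 7, at 2.55 (1.93 to 4.30), Fgf9 1438 and 27, at 1.98 (1.55 to 2.70), and Bmp8a 1032 and 34, at 1.21 (0.79 to 1.82). Fgf11 lies beside Chrnb1, a receptor subunit of muscle with 1422 reads in the control paw. In the same spot, 96.4% of the reads of Fgf11 could be matched to reads of Chrnb1. Numbers were equal in 18.6% of the spots that held either. The matched share also rises with the reads of the neighbour: Cdk5r2, with 4191 reads, matched 96.0% of those of its neighbour Wnt10a. The share therefore cannot decide whether Fgf11 and Chrnb1 share fragments. Wnt1 had 150 reads and 3, at 1.30 (0.43 to 4.30), and with the deposited values its ratio was -0.23.

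Bmp6, Wnt4 and Wnt9b led the genes that were lower in the control paw than in the embryo. Bmp6, which regulates iron and bone, had 181 reads in the control paw and 70 in the far shallower embryo section, at -2.10 (-2.67 to -1.85). Wnt4, needed for kidney tubules and the ovary, was at -1.64, Wnt9b, which acts in the kidney and the face, at -1.57, and Wnt6 at -1.38. Bmp10 was at -1.49 with 30 reads in the control paw and 11 in the embryo, Fgf18 at -1.33, Bmp1 at -1.26, Wnt2b at -1.14 and Fgf10 at -1.09. Bmp6, Wnt3 and Fgf11 stayed called under every other setting tried for them. Among the 85 pathway genes, 6 were higher (7.06%, against 9.86% of all genes) and 11 lower (12.9%, against 11.0%). Ror1 was highest (2217 reads in the control paw and 10 in the embryo, at 3.81), and Fgfr4 (266 and 239, at -3.34) and Fgfr1 (458 and 191, at -2.30), receptors of secreted Fgf ligands, were lowest among the Fgf receptors. Twsg1, which modulates Bmp binding, was at 2.41 with 2 reads in the embryo, Msx2 at 1.78, Smad9 at 1.28, Ryk at -1.69, Id3 at -1.46, Dkk3 at -1.39 and Smad1 at -1.35.

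The brain was set against the embryo for H3K4me3. Wnt11 and Fgf13 had less H3K4me3 in the brain than the embryo, and Fgf15 had more. Of 39 genes held by both, 2 were called higher, against 7.23% of 11127 genes, and 6 lower, against 11.6%. The medians were 0.11 for 17 Wnt, -0.27 for 15 Fgf and 0.70 for 7 Bmp genes; 5 of 7 Bmp genes were above 0, with 0 of 7 called either way. The Wnt median lay between -0.16 and 0.06 and the Fgf median between -0.33 and 0.23 under the other settings, so neither sign was settled. Wnt11 had 492 reads in the brain and 355 in the embryo, whose section was far shallower, at -2.87 (-3.11 to -2.71). Although lower, it still stood at percentile 96.0 in the brain, against 99.3 in the embryo. Fgf13, an intracellular protein of neurons, had 300 and 116 reads, at -1.96 (-2.32 to -1.69). Wnt2b was at -1.81 (165 reads in the brain and 59 in the embryo), Fgf4, a ligand of the limb ridge and the early embryo, at -1.29, and Wnt10a at -1.26. Fgf6 was at -1.07 (65 and 14 reads) and turned to 0.23 with the deposited values. Fgf15, which the mouse uses as a gut hormone and in the embryonic brain, had 204 and 5 reads, at 1.46 (0.73 to 3.61). Fgf20, a ligand of inner ear and midbrain, had 68 and 1, at 1.14 (0.18 to 8.03). Fgf13 and Wnt11 stayed called under every other setting, and Fgf20 under 2 of 6.

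The 12 ligand genes not held by the brain ranked between 3.0 and 92.4 in the control paw. Of the 85 pathway genes both sections held 66, with 1 higher (1.52%, against 7.23% of all genes) and 7 lower (10.6%, against 11.6%). Sost, a secreted antagonist that binds Lrp5 and Lrp6, had 440 reads in the brain and 1289 in the embryo, the embryo sum being a lower bound, at -4.87. Sfrp2, which binds Wnt proteins, was at -2.79, Smad6, an inhibitor of Bmp signals, at -2.70, Msx2 at -1.79 and Sp5, a Wnt target, at -1.04. Etv1, an Fgf target, was at 1.37 with 137 reads in the brain and 3 in the embryo.

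**Figure D4:**
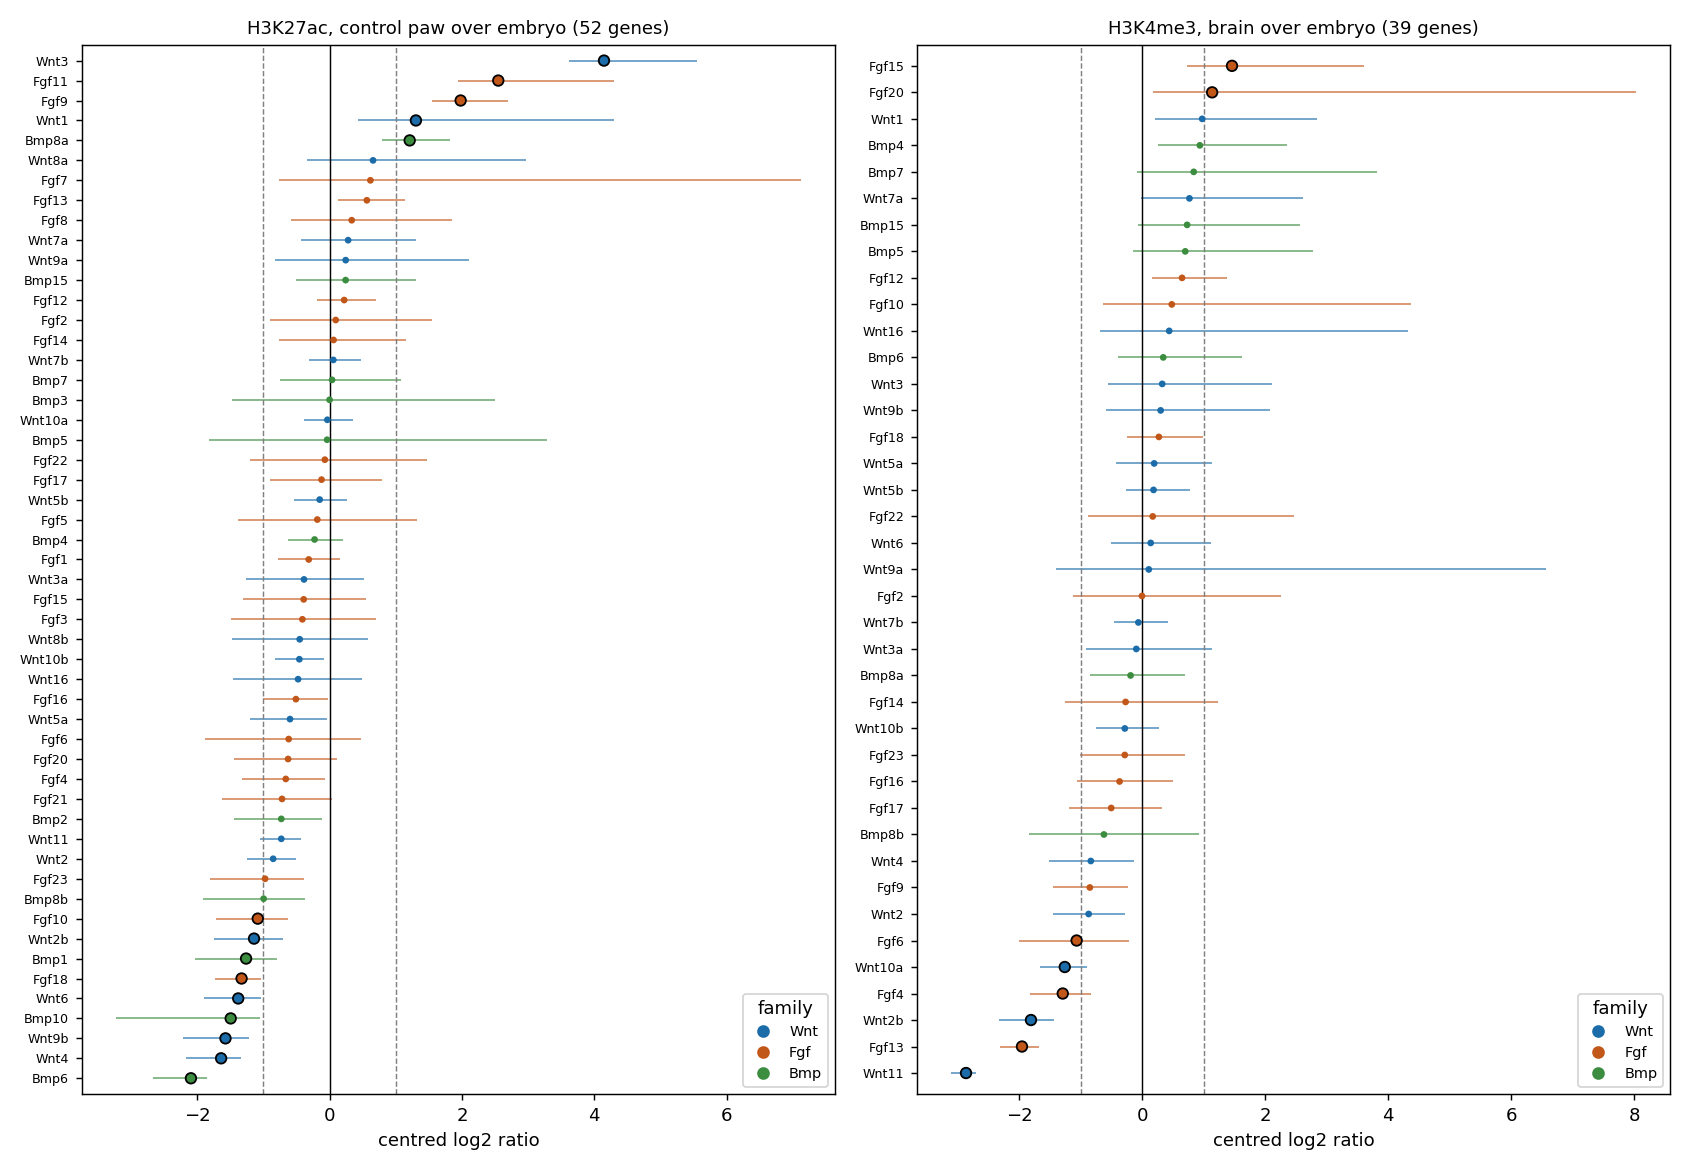
Centred log2 ratios of ligand genes (horizontal axes) for control paw over embryo H3K27ac (left, 52 genes) and brain over embryo H3K4me3 (right, 39 genes), each sorted; colours give families, lines are 95% counting intervals of the read ratio, dashed lines mark 1 either way, and large outlined points are called. Wnt3 (4.15) leads on the left and Bmp6 (-2.10) is lowest there, while on the right Fgf15 (1.46) leads and Wnt11 (-2.87) is lowest.

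The 3 embryo sections asked how the silencing mark and the active marks are shared among the same genes at 1 stage. Relative to all genes, Wnt16, Fgf23 and Bmp10 stood far higher for H3K27me3 than for either active mark. In the same way Wnt11 and Fgf13 stood higher for H3K4me3, and Bmp6 and Wnt9b for H3K27ac, than for either other mark. Each ratio compares a gene's standing among all genes under different marks, measured in separate sections. It does not compare the amounts of the marks on a gene. The 3 comparisons share sections, so they are given side by side and not as independent results. Over H3K27ac, H3K27me3 was higher in 7 of 52 genes, against 10.6% of 18653, and lower in 5, against 10.9%. Over H3K4me3, H3K27me3 was higher in 13 of 50 genes, against 11.3% of 17837, and lower in 6, against 10.2%. H3K27ac over H3K4me3 was higher in 9 of 50, against 10.9% of 17762, and lower in 6, against 9.32%. The share of ligand genes higher under H3K27me3 than under H3K4me3 (26.0%) was above that of all genes, but the count of 13 fell to 4 with a pseudocount of 1, to 8 with even array columns and to 7, of the 25 genes still compared, once low-signal genes were dropped. The other shares, from 9.62% to 18.0%, lay nearer to those of all genes. In all, 26 ligand genes were called in at least 1 of the 3.

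The Wnt medians were 0.56 for H3K27me3 over H3K27ac, 0.47 for H3K27me3 over H3K4me3 and 0.18 for H3K27ac over H3K4me3, with 13, 12 and 12 of 19 genes above 0. Wnt16 had 246 reads under H3K27me3, 11 under H3K27ac and 2 under H3K4me3, at 3.83 (3.28 to 5.17) for H3K27me3 over H3K27ac and 4.92 (4.12 to 9.04) over H3K4me3. Wnt2, a lung ligand, had 167, 72 and 30 reads in the same order of marks, at 1.45 for H3K27me3 over H3K4me3. Wnt5a, which drives outgrowth of limbs and face, had 89, 29 and 16 reads, at 1.21 and 1.39, and the ratio over H3K4me3 turned to -0.82 with the deposited values. Wnt9a had 19, 5 and 1 reads, at 1.20 and 1.87. Wnt11 had 128 reads under H3K27me3, 98 under H3K27ac and 355 under H3K4me3, at -2.39 (-2.73 to -2.13) for H3K27me3 and -2.45 (-2.82 to -2.16) for H3K27ac over H3K4me3. Wnt2b had 32, 39 and 59 reads, at -1.72 and -1.17 over H3K4me3. Wnt9b had 16, 45 and 6 reads, at -1.60 for H3K27me3 over H3K27ac and 1.91 for H3K27ac over H3K4me3, and Wnt6 with 46, 57 and 15 reads was at 1.17 for H3K27ac over H3K4me3.

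The Fgf medians lay near that of all genes, at -0.08, -0.01 and -0.03 in the same order of comparisons, and each changed sign under at least 3 other settings. Fgf23 had 246 reads under H3K27me3, 21 under H3K27ac and 14 under H3K4me3, at 3.05 (2.57 to 3.93) for H3K27me3 over H3K27ac and 2.99 (2.40 to 4.07) over H3K4me3. It has the same read sum as Wnt16 under H3K27me3, but of 194 spots with reads of either gene 30 held equal numbers. Its neighbour Fgf6 had 4, 8 and 14 reads and was lower under H3K27me3 than under H3K4me3, at -1.95, so the pair did not move together. Fgf8, which patterns the limb ridge and the border of midbrain and hindbrain, had 48, 7 and 60 reads, at 2.05 for H3K27me3 over H3K27ac, -1.21 for H3K27me3 over H3K4me3 and -3.26 (-5.10 to -2.60) for H3K27ac over H3K4me3. The gene beside it, Npm3, had 83 reads under H3K4me3, and 91.7% of the Fgf8 reads could be matched to Npm3 reads in the same spot, so which of the pair they come from cannot be told apart. Fgf13 had 30, 35 and 116 reads, at -2.75 (-3.54 to -2.32) and -2.27 (-2.95 to -1.80) over H3K4me3. Fgf4 with 29, 26 and 43 reads was at -1.41 and -1.27 over H3K4me3, and Fgf6 at -1.19 for H3K27ac over H3K4me3, which was 0.10 with even array columns. Fgf10 had 27, 35 and 2 reads, at 1.91 for H3K27me3 and 2.53 (1.54 to 6.60) for H3K27ac over H3K4me3, and Fgf20 21, 17 and 1, at 1.99 for both. Fgf2 had 25, 7 and 4 reads, at 1.21 and 1.26 for H3K27me3 over H3K27ac and H3K4me3, and Fgf18 was at 1.05 for H3K27ac over H3K4me3.

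The Bmp medians were -0.10, 0.50 and 0.80 in the same order of comparisons, with 8 of 10 Bmp genes above 0 for H3K27ac over H3K4me3, of which 4 were called higher and 0 lower, against 10.9% and 9.32% of all genes. Of those 4, Bmp1, Bmp4 and Bmp10 lost the call with a pseudocount of 1 and with even array columns, and Bmp6 kept it. Bmp10 had 79 reads under H3K27me3, 11 under H3K27ac and 1 under H3K4me3, at 2.24 (1.59 to 3.57) for H3K27me3 over H3K27ac, 3.72 (2.83 to 10.67) over H3K4me3 and 1.48 for H3K27ac over H3K4me3. Bmp6 had 16, 70 and 10 reads, at -2.20 (-3.35 to -1.67) for H3K27me3 over H3K27ac and 1.95 (1.21 to 3.30) for H3K27ac over H3K4me3. Bmp2, a ligand of heart and bone, was at -2.03 for H3K27me3 over H3K27ac, with 4 and 23 reads, and was not held by the H3K4me3 section. Bmp1 had 8, 28 and 3 reads, at -1.70 for H3K27me3 over H3K27ac and 1.93 for H3K27ac over H3K4me3. Bmp8b was at -1.26 for H3K27me3 over H3K27ac, Bmp4 at 1.71 for H3K27ac over H3K4me3, and Bmp7, a kidney and eye ligand, at 1.30 for H3K27me3 over H3K4me3 with 21 and 3 reads. The 3 genes not named among the 13 that were higher for H3K27me3 over H3K4me3 lay between 1.02 and 1.23. Many of these counts are small: of the 46 embryo calls, 15 stayed called under every other setting, namely those of Wnt16, Fgf23 and Bmp10 under H3K27me3, Wnt2 (higher) and Wnt2b (lower) for H3K27me3 over H3K4me3, Wnt11 and Fgf13 (lower) for either other mark over H3K4me3, Bmp6 in both comparisons with H3K27ac, and Fgf8 (lower) for H3K27ac over H3K4me3.

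**Figure D5:**
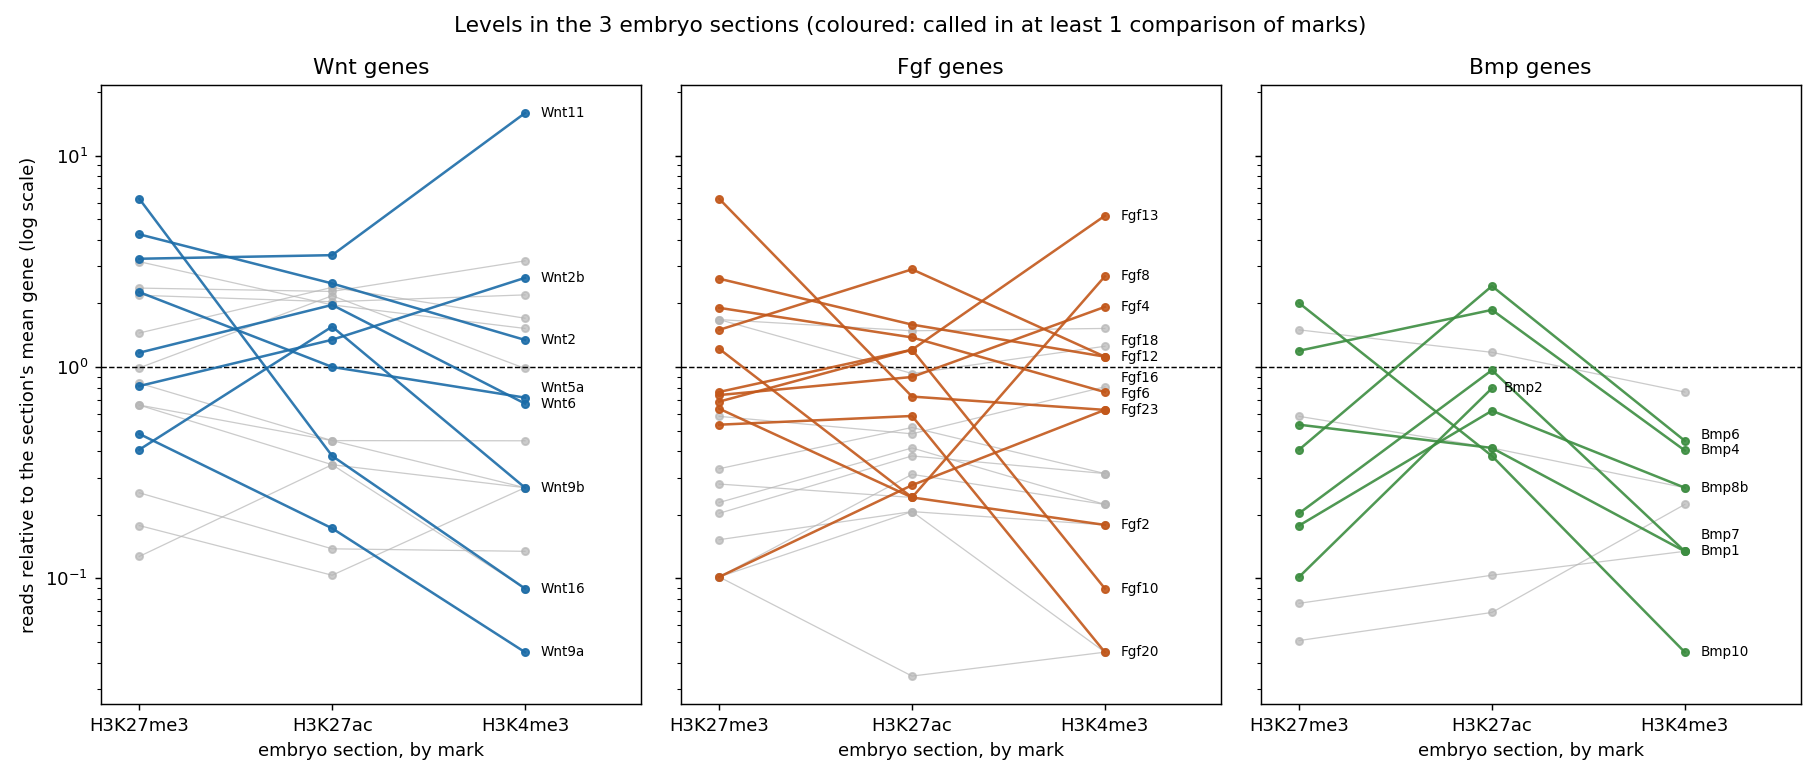
Level of each ligand gene relative to the mean gene of the section (vertical axis, log scale) in the embryo sections for H3K27me3, H3K27ac and H3K4me3 (horizontal axis), in panels by family; lines join the values of 1 gene, coloured genes were called in at least 1 comparison of marks and are named, and grey genes were not. Wnt16, Fgf23 and Bmp10 slope down from H3K27me3, Wnt11 and Fgf13 slope up to H3K4me3, and Bmp6 peaks under H3K27ac.

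Of the 85 pathway genes, 11 were higher and 5 lower among 84 held for H3K27me3 over H3K27ac, 12 and 9 among 81 for H3K27me3 over H3K4me3, and 8 and 7 among 82 for H3K27ac over H3K4me3. These are shares of 13.1% and 5.95% (against 10.6% and 10.9% of all genes), 14.8% and 11.1% (against 11.3% and 10.2%), and 9.76% and 8.54% (against 10.9% and 9.32%). Fst, the secreted antagonist follistatin, had 476 reads under H3K27me3, 8 under H3K27ac and 8 under H3K4me3, at 5.12 and 4.59 for H3K27me3 over the others. Acvr1, a Bmp receptor, had 530, 40 and 32 reads, at 3.30 and 3.01. Fgfr4 had 42 reads under H3K27me3, 239 under H3K27ac and 24 under H3K4me3, at -2.73 for H3K27me3 over H3K27ac and 2.58 for H3K27ac over H3K4me3. Sost had 104, 43 and 1289 reads, at -4.53 for H3K27me3 and -5.44 for H3K27ac over H3K4me3, where its sum is a lower bound. Smad9 was at -2.29 and -3.51, Sfrp2 at -2.25 and -2.36, and Smad6 at -1.58 and -2.71 over H3K4me3. Etv5 was at 1.70 and 2.31, and Smad7, another inhibitor of Bmp signals, at 1.30 and 1.94 for H3K27me3 over H3K27ac and H3K4me3.

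Some ligand genes lie side by side on a chromosome, namely Wnt6 with Wnt10a, Wnt10b with Wnt1, Wnt3 with Wnt9b, Wnt3a with Wnt9a, Fgf3 with Fgf4 and Fgf15, and Fgf6 with Fgf23. Over the 39 cases of such a pair in a section that held both, reads lay within 5% of each other in 3 and differed at least 2-fold in 24. The 3 were Wnt9b and Wnt3 in the brain (94 and 96 reads) and for embryo H3K4me3 (6 each), and Fgf6 and Fgf23 for embryo H3K4me3 (14 each). In the control paw, Wnt10a had 807 reads and Wnt6 255, Wnt10b had 621 and Wnt1 150, and Wnt3 had 2814 and Wnt9b 169. For embryo H3K27me3, Fgf23 had 246 and Fgf6 had 4. Pairs of a ligand with another gene could also be nearly equal: Fgf21, the fasting hormone, had 104 reads and its neighbour Fut1 116 in the control paw, with equal numbers in 81.6% of the spots that held either, and Bmp1 had 129 against 147 of Sftpc, equal in 67.9% of such spots. For these, which gene the fragments belong to cannot be told apart.

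Over the array, the median ligand gene with at least 20 reads varied about as much as the totals of the spots would give. The variance over spots divided by that which spot totals alone would give had a median of 1.02 over ligand genes of the arthritis paw, 1.04 in the control paw, 0.98 in the brain, and 1.02, 0.99 and 0.96 for embryo H3K27me3, H3K27ac and H3K4me3, against 1.00 to 1.02 over all genes with at least 20 reads. The highest values were those of Fgf12 in the arthritis paw (2.37) and Wnt2 in the control paw (2.13). Above the 95th percentile of all such genes were 2 of 37 ligand genes in the arthritis paw, 4 of 52 in the control paw and 2 of 40 in the brain. For embryo H3K27me3, H3K27ac and H3K4me3 these were 2 of 32, 1 of 25 and 1 of 15. With few reads per spot such a value lies near 1 from counting alone, so it cannot exclude a pattern over the array. No spot held more than 10% of the reads of a ligand gene with at least 20. Across the 35 genes held by all sections, Spearman's rho between the reads of 2 sections ran from 0.49 (arthritis paw with embryo H3K27me3) to 0.80 (brain with embryo H3K4me3). Over all 9471 such genes it ran from 0.59 to 0.73. Both are descriptions of genes that share libraries.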

How the data were processed

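Histone-mark fragments were measured by position in 6 mouse sections, 1 per group. Per the submitters' processing notes, Bowtie2, featureCounts, MACS2 and the builds hg19 and mm9 were used; the sources used here give neither their roles nor their versions. The authors deposited signal values per gene and spot after quantile normalisation. Within a spot, tied genes stood in the gene order of the control paw, so each fall in that order marks 1 further read, and reads were recovered from these ties. Recovery was taken as exact up to the lowest count shared by under 5 genes, and a gene with over 10% of its reads beyond that count was taken as a lower bound. Recovered totals were 92.9% to 95.4% of those implied by the common list of values. The share of ranks in that list whose recovered sum was equal was 99.1% in the arthritis paw and 98.8% in the control paw. It was only 37.4% in the brain, and 51.6%, 50.8% and 51.2% for embryo H3K27me3, H3K27ac and H3K4me3. At the highest rank the recovered sum fell short in every section, as in the arthritis paw with 16739 of 114007 reads. Across all genes, the deposited values had a Spearman's rho of 0.33 to 0.58 with the place in the gene order and the recovered reads -0.11 to -0.06.

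Reads were summed over spots and divided by the section's mean gene. A pseudocount of 0.1 was added on that scale before log2 ratios, which were centred on the median of all genes held by both sections; 95% intervals are exact conditional binomial intervals of the 2 read sums. They cover counting error only, since reads without molecular identifiers are not independent molecules. A call needed a centred log2 ratio of 1 and an interval excluding 0. With the deposited values and with the mean of spot shares, which give no read counts, it needed the ratio alone. The recovery and the ratios were tried on simulated data. These data were built with the same order of tied genes that the recovery assumes, so they cannot show that the deposited values follow it. Python 3.11.15, numpy 2.4.6, pandas 2.3.3, scipy 1.17.1 and matplotlib 3.10.9 were used.

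Named genes are the 3 highest and 3 lowest of each family in a section, every called gene or the 10 largest each way in a comparison, neighbouring members, Bmp1 and Fgf11 to Fgf14, and the 2 largest called genes of each pathway list. Members, lists, tests and the choice of recovered reads were made with earlier results of these data known. Gene spans and neighbours come from RefSeq on GRCm38.p6 and promoters from RefSeq on the same build, matched by symbol; since the authors' notes name mm9, no other coordinates are printed.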

Additional observations from a re-analysis of the deposited data

How the results depend on the processing

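Of the 74 calls of ligand genes in 6 comparisons, 23 stood under every alternative that gave a value (deposited values, a pseudocount of 1, genes of lower signal left out, even columns, odd columns, share of spots, mean of spot shares, and paws without 6 array columns), and 70 kept their direction under all of them. The direction turned for Wnt1 in the control paw over embryo H3K27ac (-0.23 with the deposited values), Fgf6 in the brain over embryo H3K4me3 (0.23, deposited values), Wnt5a for embryo H3K27me3 over H3K4me3 (-0.82, deposited values) and Fgf6 for embryo H3K27ac over H3K4me3 (0.10, even columns). With a pseudocount of 1, the genes called higher and lower numbered 1 and 2 for arthritis over control paw, 3 and 1 for control paw over embryo, 0 and 2 for brain over embryo, 3 and 1 for H3K27me3 over H3K27ac, 4 and 3 for H3K27me3 over H3K4me3, and 1 and 3 for H3K27ac over H3K4me3. A larger pseudocount shrinks the ratios of genes with few reads by construction. Other counts that moved by over 1.5 times were 3 higher for control paw over embryo by share of spots, 4 higher (deposited values) and 5 higher (mean of spot shares) for brain over embryo, 8 lower (deposited values) and 3 lower (genes of lower signal left out, with fewer genes compared) for H3K27me3 over H3K27ac, and 7 higher (genes of lower signal left out) and 8 higher (even columns) for H3K27me3 over H3K4me3. For these the cause was not tested, and the remaining 82 counts lay within 1.5 times. Counts with the deposited values and with the mean of spot shares use no interval, a looser rule than that of the main counts.

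All family medians stayed within the 95% order-statistic interval of the main value, which is wide. That interval is taken over the genes of a family. For the Bmp genes of the arthritis paw (5.8 to 81.1) and the brain (5.0 to 78.5) it runs from the lowest to the highest gene. Staying inside it therefore does not show that a median is stable. The largest shift of a median percentile was from 53.6 to 32.1 for Bmp genes of embryo H3K27me3 per kilobase of span, and the largest of a median log2 ratio from 0.80 to 1.75 for Bmp genes in H3K27ac over H3K4me3 once genes of lower signal were left out. Percentiles among genes held by all 6 sections were added after the data were seen. No paired analysis was possible because each group holds 1 section and no replicate can be left out. Depth limits the embryo most, where a ligand gene had as few as 1 read.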
